A study of Drosophila melanogaster with 2 samples.

Results

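OdsH (Ods-site homeobox) summits inside introns, a short way from a transcription start site, made up 1857 of the 7223 thresholded summits (25.7%, 95% Wilson interval 24.7 to 26.7). A summit is the position of highest signal within a called peak. The 1857 were chosen by position alone. Each lay inside an annotated gene, in no exon of any gene, and more than 500 bp but at most 5000 bp from the nearest start site of any transcript. They are called near intron summits here. Another pair of classes from the same list served for comparison: the 3135 summits within 500 bp of a start site (promoter summits) and the 913 intron summits over 5000 bp from one (far intron summits). The number of peaks, and not of animals, sets every interval and test below, so these cover counting error over peaks only, and neighbouring peaks are not independent.

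The data are chromatin immunoprecipitation with sequencing from Drosophila melanogaster, in 1 group of 2 biological replicates. Whole larvae at the wandering stage of the third instar were used, from a transgenic line with stable expression of OdsH that carries GFP at the C terminus. Chromatin was recovered through the GFP tag with an anti-GFP antibody. Sex was not collected, all tissues of the larva were pooled, and the control library was not analysed here. With 1 group there was no contrast between conditions, so the comparisons are between classes of summits and between the replicates.

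OdsH is a paired-class homeodomain protein that arose as a duplicate of unc-4 and is best known for its rapid evolution and its role in hybrid male sterility between Drosophila species. Homeodomains of this kind contact a short core rich in A and T, and dimers of paired-class proteins can hold 2 cores that face each other. Introns near the start of fly genes, the first intron above all, often hold enhancers and further start sites of the same gene. A called peak shows that chromatin was recovered with the tagged protein, and not that a gene was regulated.

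Windows that reach 50 bp to either side of 5 near intron summits are shown because they span what was found at the strongest: many copies of the homeodomain core, 1 copy, or none. They are read on the + strand of the Release 6 genome (dm6), from RefSeq, and capitals mark each TAAT and each ATTA, which is the same core on the other strand. In ush, the gene of a GATA factor cofactor, the strongest near intron summit lay in the window chr2L:481011-481111 and held 1 core. In CG11050 the window was chr2L:6612663-6612763, and it was the strongest to hold the palindrome TAATTA. The window in Lk6, a kinase gene, was chr3R:11760998-11761098. The window in CG32772 was chrX:4910315-4910415 and held no core. In Eip78C, which encodes an ecdysone-induced nuclear receptor, the window chr3L:21253851-21253951 held 2 cores facing each other across 3 bases. It was the strongest such window outside the 1 arm that the rule for sequences left out.
ush: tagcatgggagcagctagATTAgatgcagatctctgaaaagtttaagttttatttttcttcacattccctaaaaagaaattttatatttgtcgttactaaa
CG11050: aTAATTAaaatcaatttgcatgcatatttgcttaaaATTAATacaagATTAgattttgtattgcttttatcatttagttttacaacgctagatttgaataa
Lk6: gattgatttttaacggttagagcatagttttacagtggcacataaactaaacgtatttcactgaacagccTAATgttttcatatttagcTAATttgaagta
CG32772: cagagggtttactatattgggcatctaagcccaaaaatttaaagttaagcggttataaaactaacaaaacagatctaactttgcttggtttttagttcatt
Eip78C: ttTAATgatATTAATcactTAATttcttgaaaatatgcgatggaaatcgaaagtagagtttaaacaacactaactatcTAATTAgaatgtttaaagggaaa

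The strongest summit of the whole thresholded list was a near intron summit, that of ush. Signal here is the value that the authors' peak caller assigned. Its scale is not given, so it serves to order and describe peaks and nothing more. The ush summit had a pooled signal of 4906, with 2260 in replicate 1 and 2691 in replicate 2, and ranked 1 in all 3 lists. It lay in the first intron of ush, 1373 bp from the nearest start, which is that of the neighbouring gene cbt, encoding a zinc finger transcription factor. The CG11050 summit ranked 2 in all 3 lists, with a pooled signal of 4058 and replicate signals of 1893 and 2235. Its intron was only 140 bp long, shorter than the called peak of 550 bp. The Lk6 summit had pooled signal 2530, with 1146 and 1388 in replicates 1 and 2. Lk6 phosphorylates the translation factor eIF4E. The CG32772 summit had pooled signal 2356, with 1060 and 1307 in the replicates. Each of these 4 summits was higher in replicate 2 than in replicate 1, and each lay between 969 and 1373 bp from its nearest start.

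The 20 strongest near intron summits ranged down to a pooled signal of 1413, at CG9837, which had 669 in replicate 1 and 764 in replicate 2. All 20 stood within rank 69 of the pooled list, rank 80 of replicate 1 and rank 71 of replicate 2. Their host genes had varied roles. Zw encodes glucose-6-phosphate dehydrogenase of the pentose phosphate pathway, and its summit had signals of 1753 pooled, 802 and 959. The norpA gene encodes the phospholipase C of phototransduction, and its summit had 1691 pooled, 768 and 939. The crb gene encodes the apical polarity protein Crumbs, and its summit had 1620 pooled, 702 and 924. Trl encodes GAGA factor, and its summit had 1600 pooled, 694 and 926. Eip78C had 1526 pooled, 714 and 835, and the foraging gene for, which encodes a cGMP-dependent protein kinase, had 1498 pooled, 711 and 803. The remaining hosts were CG9663 (with 2 summits 202 bp apart in 1 interval), LPCAT, CG3726, HmgZ, CG12769, CG4496, Tlk and Hyls1, where the summit also lies within chif. Of the 20, 18 lay in the first intron of a transcript, and for 17 the nearest start belonged to a gene that spans the summit.

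**Figure D1:**
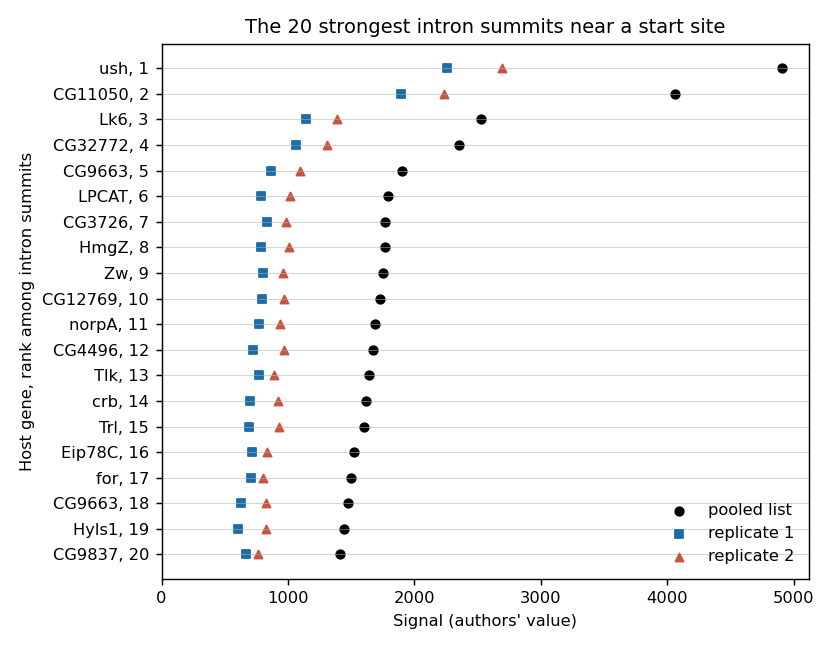
Signal of the 20 strongest near intron summits (horizontal axis, the authors' value) by host gene and rank, in the pooled list (black circles), replicate 1 (blue squares) and replicate 2 (orange triangles). The ush and CG11050 summits, at 4906 and 4058 pooled, stand apart from the rest, and replicate 2 lies to the right of replicate 1 in each line.

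Signal over all near intron summits had a pooled median of 189 (quartiles 138 and 309). The medians were 90.1 in replicate 1 and 108 in replicate 2. Promoter summits had 192, 92.8 and 109, and far intron summits had 176, 83.2 and 100.7, so the order of the 3 classes was the same in each list while their quartiles overlapped widely. Of the 100 strongest thresholded summits 25 were near intron summits, and of the 500 strongest 129 were, both close to their 25.7% share of the whole list. Among the 1805 strongest of the 7223, taken as strong, were 479 near intron summits (25.8% of their class) and 196 far intron summits (21.5% of theirs). Near intron summits were thus strong about as often as the list as a whole, and far intron summits less often. The difference between the near and far classes was 4.33 percentage points (95% Newcombe interval 0.937 to 7.58, two-sided Fisher exact test, adjusted p = 0.0252 over 2 comparisons). This call depended on the replicate: in the list of replicate 2 alone the difference was 5.66 points (Fisher exact adjusted p = 0.00203), and in that of replicate 1 alone 3.88 points (adjusted p = 0.0576). It was also lost with only the 5′ ends of genes as start sites, at 2.02 points (Fisher exact adjusted p = 0.391). Promoter summits were strong in 27.1% of cases, and the difference of -1.29 points (-3.79 to 1.26, Fisher exact adjusted p = 0.337) did not pass the threshold.

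The replicates ranked the near intron summits in a similar order. A peak with its summit within 200 bp was found in both replicates for 1848 of the 1857. Over these 1848, Spearman's rho between the replicate signals was 0.821, as a description across peaks that share the 2 libraries. The median log2 ratio of replicate 2 to replicate 1 was 0.26 (SD 0.46 over peaks), and replicate 2 was higher at 1428 (77.3%). The middle 90% of ratios ran from -0.39 to 0.89 on the log2 scale, and the extremes were -3.12 and 3.23. Each replicate value is that of the strongest peak within 200 bp, which may be a neighbouring peak. At Psc, for example, it was 411 in replicate 1 and 47.4 in replicate 2, against 117 in the pooled list. The extremes are therefore not a measure of how far the replicates differed at 1 summit. Among the 7223 strongest peaks of both replicates were 1535 of the near intron summits (82.7%), against 82.6% of promoter summits and 80.7% of far intron summits.

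The 9 near intron summits without a partner in 1 replicate were named after their values were seen. Those in arr, tna and shn had none in replicate 2, and those in mew, lncRNA:iab8, kay, ena, lncRNA:CR43314 and CG1146 had none in replicate 1. The highest was arr, which encodes a Wingless co-receptor, with 697 in the pooled list and 347 in replicate 1. Another thresholded summit lay 224 bp from it. In 6 of the 9 another summit lay within 300 bp, the nearest at 199 bp for ena, and in the others it lay over 2000 bp away.

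**Figure D2:**
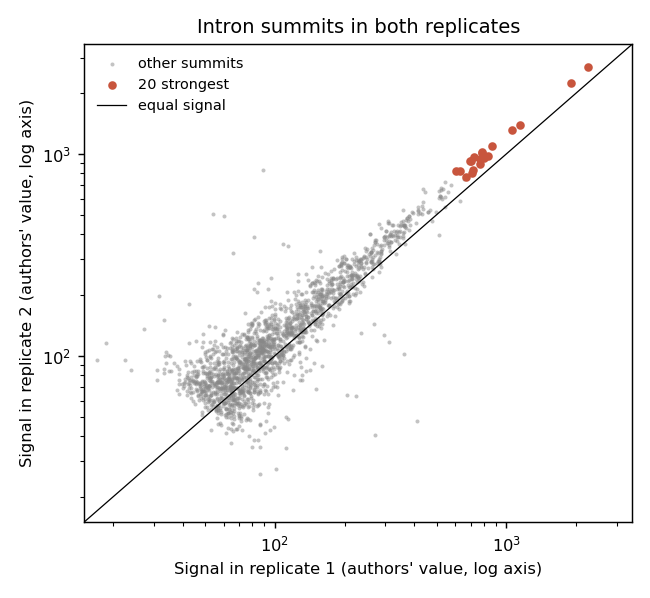
Signal of each near intron summit in replicate 1 (horizontal) and replicate 2 (vertical), both log axes of the authors' value, with the line of equal signal. The 20 strongest (orange) all lie above the line, as do 77.3% of all 1848 summits plotted. A few points lie far from the line, where the value of a replicate may be that of a neighbouring peak.

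Near intron summits were densest close to start sites. The sequence that meets the rule of position, called eligible here, came to 24.5 Mb, so the mean density was 75.6 summits per Mb. Over 500 and up to 1000 bp from a start there were 517 summits, 117 per Mb (exact 95% Poisson interval 107 to 128). The density was 82.6 per Mb up to 2000 bp, 61.6 in the next bin, up to 3000 bp, and 59.6 up to 4000 bp. In the farthest bin, over 4000 and up to 5000 bp, it was 50.3 per Mb (43.1 to 58.3), with 176 summits. The median distance was 1677 bp (quartiles 944 and 2847). Signal changed little along this range, with pooled medians of 202 in the nearest bin and 184 in the farthest. At the limits of the rule, the 128 intron summits over 400 and up to 500 bp from a start had a median signal of 179.7, and the 120 over 500 and up to 600 bp had 204. The 36 over 4800 and up to 5000 bp had 159, and the 36 over 5000 and up to 5200 bp had 173.

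Most near intron summits lay in the first intron of a transcript. These numbered 1434 (77.2%, Wilson interval 75.3 to 79.1), while 57.4% of the eligible sequence lay in first introns. The density there was 102 per Mb (interval 96.6 to 107), against 40.5 per Mb (36.7 to 44.5) in introns that are the first of no transcript. The gap between the 2 kinds of intron was seen in each bin of distance. In the nearest bin the densities were 145 and 55.3 per Mb, in the middle bin 83.4 and 35.7 per Mb, and in the farthest bin 64.8 and 37.1 per Mb, with Poisson intervals that did not overlap in any of the 5 bins. The decline with distance was from 145 to 64.8 per Mb in first introns and from 55.3 to 37.1 per Mb in the others. Signal medians were 191 in first introns and 180.4 elsewhere.

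**Figure D3:**
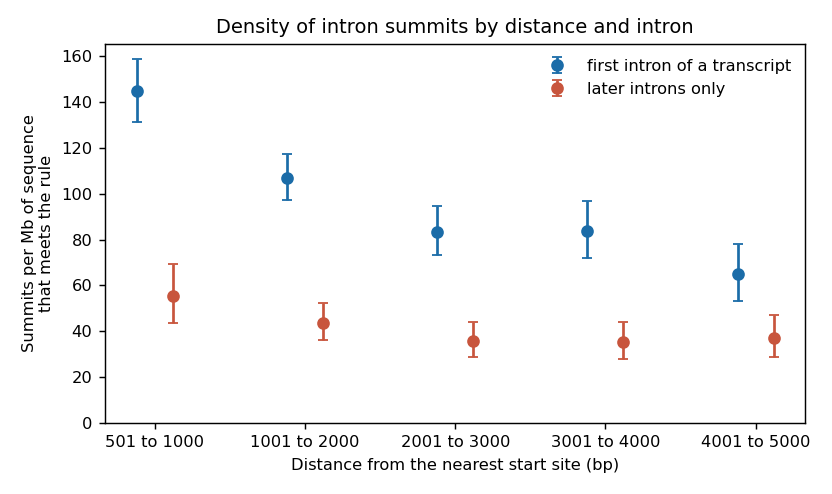
Density of near intron summits per Mb of eligible sequence (vertical) in 5 bins of distance from the nearest start site (horizontal), in the first intron of a transcript (blue) and in later introns only (orange), with exact 95% Poisson intervals. First introns are denser in each bin, from 145 per Mb nearest the start to 64.8 per Mb in the farthest bin.

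The nearest start belonged, as a rule, to a gene that spans the summit. For 1049 summits (56.5%) that start lay upstream, as the gene is read, at 83.4 summits per Mb, and for 387 (20.8%) the summit lay upstream of an internal start, at 109.9 per Mb (Poisson interval 99.2 to 121). For 421 (22.7%) it was the start of a gene that does not span the summit, at 49.9 per Mb (45.2 to 54.9), although such sequence was 34.4% of all eligible. Over all 1857 near intron summits, the nearest start was one of a noncoding gene for 243 (13.1%). The nearest start also had a thresholded summit within 500 bp for 620 near intron summits (33.4%, Wilson interval 31.3 to 35.6), and the eligible sequence with such a start was 16.4%. Density was 154 per Mb beside these starts (142 to 167) and 60.3 per Mb (57.0 to 63.7) beside the rest. Where both were present, the near intron summit was set against the strongest summit within 500 bp of that start. It was the stronger in 291 of 620 cases (46.9%), and several cases can share 1 start. These densities are descriptions, and no test was run on them.

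The chromosome arms had like densities, except for chromosome 4. The X had 78.7 near intron summits per Mb of eligible sequence, 2L 73.4, 2R 80.1, 3L 75.6 and 3R 75.2. Chromosome 4, a small and largely heterochromatic chromosome, had 2 summits, or 6.33 per Mb (exact Poisson interval 0.767 to 22.9). Near intron summits lay close to other summits of the list. The next thresholded summit was a median of 1623 bp away, and it was within 1000 bp for 658 (35.4%), against 28.2% of promoter summits and 23.5% of far intron summits.

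Protein-coding genes that hosted a near intron summit numbered 1038 of the 6043 with at least 200 eligible bases, which is 17.2%. Of the 1038, 598 held 1 summit, 249 held 2 and 98 held 3. The 62 genes with at least 5 summits together held 410 (22.1% of all near intron summits). The genes with most were shn and CG1677, with 14 each, and sbb, E2f1 and Tlk, with 11 each. Schnurri, encoded by shn, is a zinc finger protein that represses genes under Dpp signalling, and its 14 summits had pooled signals from 149 to 1264. E2f1 encodes the transcription factor that drives entry into S phase, and its 11 summits ranged from 127 to 433. Tlk encodes a Tousled-like kinase, with summits from 119 to 1637. These genes also had much eligible sequence, from 20496 bp in sbb to 58139 bp in CG1677.

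Genes that hosted a near intron summit also carried promoter summits more often than other genes with eligible sequence. A thresholded summit lay within 500 bp of one of the gene's own starts for 539 of the 1038 hosts (51.9%) and for 1326 of the 5005 others (26.5%). The difference was 25.4 percentage points (Newcombe interval 22.1 to 28.7, two-sided Fisher exact p = 4.78e-55). It was 23.4 points in the list of replicate 2 alone and 27.2 points in that of replicate 1 alone. With only the 5′ ends of genes as start sites it was smaller, at 13.0 points (Fisher exact p = 1.06e-18). Hosts were longer genes, with a median length of 15106 bp against 4921 bp. The genes were therefore split into 5 groups of nearly equal number by their eligible bases, a comparison added after the values were seen. The groups were not matched for the number of starts per gene. A gene with more starts has more places where a promoter summit can lie. In the 3 groups with most eligible sequence the shares were 49.4% against 28.5% (Fisher exact p = 2.49e-07), 52.1% against 22.2% (p = 6.62e-21) and 54.2% against 21.3% (p = 1.47e-32). In the 2 groups with least, with 12 and 47 hosts, they were 41.7% against 27.9% (Fisher exact p = 0.333) and 36.2% against 29.8% (p = 0.335).

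Lists of genes by pathway differed in how often they hosted a near intron summit, and they also differed in eligible sequence, which had a median of 1463 bp over the 6043 genes. No list was tested, and each share is to be read beside the 17.2% of all genes and their 76.7 summits per Mb. Some listed symbols matched no entry of the annotation used and were not analysed here: Dl, the Notch ligand gene, among Notch genes, d, bantam and Tor among Hippo, insulin and TOR genes, calypso, eggless and Lsd1 among chromatin regulators, and RpL37a. Of genes listed under Dpp and activin signalling, the BMP and activin pathways of the fly, 16 of 25 were hosts (64.0%, Wilson interval 44.5 to 79.8), at 283 summits per Mb and a median of 4232 eligible bp. The lists were chosen with earlier results of these data known, so these shares are not independent of those results. This list also takes in ush and sbb. Of its 73 summits shn held 14, sbb 11 and ush 10. Besides ush and shn the hosts included wit, which encodes the type II BMP receptor of motor neurons, with 1108 pooled, 517 in replicate 1 and 615 in replicate 2. The summit in tkv, which encodes the type I Dpp receptor, had 772 pooled, 351 and 446. Of genes of Wingless and Hedgehog signalling 12 of 25 were hosts (48.0%), at 159 per Mb. The summit in fz, the gene of the Frizzled receptor, had 728 pooled, 331 and 394, and that in nkd, which encodes an inhibitor of Wingless signalling, had 561 pooled, 247 and 329. The summit in sgg, which encodes the kinase GSK3, had 396 pooled, 192 and 221.

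Of genes of Egfr, FGF and Ras signalling 17 of 33 were hosts (51.5%), at 168 per Mb. The summit in Raf, the kinase below Ras, had 555 pooled, 261 and 290.1. That in aop, which encodes a repressor of the Ets family, had 533 pooled, 281 and 261, and that in the receptor gene Egfr had 484 pooled, 228 and 268. In this pathway aos, which encodes a secreted inhibitor of the receptor, had 304 pooled, 154 and 152, so aop and aos were higher in replicate 1, unlike Raf and Egfr. Of Hippo, insulin and TOR genes 12 of 34 were hosts (35.3%), at 226 per Mb, with Lk6 and crb the strongest. The summit in ex, which encodes an upstream component of Hippo signalling, had 745 pooled, 322 and 445, and that in the insulin receptor gene InR had 472 pooled, 226 and 252. Of Notch genes 4 of 15 were hosts (26.7%, interval 10.9 to 52.0), at 85.4 per Mb. They were neur, a ubiquitin ligase gene, with 983 pooled, 466 and 525, the coactivator gene mam with 740.2 pooled, numb with 181, and the receptor gene N with 168.

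Genes of the ecdysone response and nuclear receptors, which act in the steroid response that ends larval life, were hosts in 15 of 29 cases (51.7%, interval 34.4 to 68.6). Their density was 117 summits per Mb and their median eligible sequence 10665 bp. After Eip78C the strongest was Hr4, a nuclear receptor gene, with 952 pooled, 414 in replicate 1 and 546 in replicate 2. Eip63E, which encodes a cyclin-dependent kinase, had 710.0 pooled, 338 and 415, and Eip74EF, which encodes an Ets factor, had 689 pooled, 288 and 428. In both, as in Hr4, replicate 2 was the higher. Of JAK/STAT and immune genes 9 of 28 were hosts (32.1%), at 168 per Mb, led by puc, a phosphatase gene of JNK signalling, with 525 pooled, 223 and 309, and by Stat92E with 422 pooled, 197 and 233.

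Of chromatin regulators 13 of 46 were hosts (28.3%), at 286 summits per Mb over a median of 1096 eligible bp. After Trl came trx, which encodes a histone methyltransferase, with 1149 pooled, 544 and 612. Kdm2, a histone demethylase gene, had 828 pooled, 367 and 468. Muscle and cytoskeleton genes were hosts in 12 of 38 cases (31.6%, 120 per Mb), led by Msp300, a gene of a giant nesprin, with 614 pooled, 269 and 356. Genes of glycolysis and the fat body were hosts in 7 of 30 (23.3%, 130 per Mb), led by SREBP, which encodes a regulator of lipid synthesis, with 519 pooled, 203 and 300.1. Axon guidance and neuronal adhesion genes were hosts in 15 of 51 (29.4%), but they had a median of 8976 eligible bp and 39.3 summits per Mb (26.3 to 56.4), below the 76.7 of all genes. The strongest in this list was in Ptp10D, a receptor phosphatase gene, with 799 pooled, 364 and 442.

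Genes of other homeodomain proteins held few near intron summits. Of 70 homeobox genes 8 were hosts (11.4%, interval 5.91 to 21.0), with 13 summits or 25.9 per Mb (13.8 to 44.4) over a median of 4198 eligible bp. The strongest was in NK7.1, with 646 pooled, 296 in replicate 1 and 352 in replicate 2. The summit in zfh1, which encodes a zinc finger and homeodomain repressor, had 587 pooled, 270 and 314. The Hox genes Antp, Abd-B and Ubx had 403, 302 and 146 in the pooled list. None of the 9 ribosomal protein genes with eligible sequence was a host, which allows a share of up to 29.9% (Wilson).

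Sequence at near intron summits was rich in A and T. The windows held 66.2% A and T (SD 8.72 over the 1857). Flanks of equal size, centred 400 bp away at lower coordinates whether or not that lay in an intron, held 56.4%. Eligible sequence as a whole held 60.8%. The summit window held more A and T than its own flank at 1422 of 1857 (76.6%). Promoter windows held 64.2% and far intron windows 67.2%. In bins of 20 bp the content around near intron summits reached 67.4% beside the summit and fell to 55.1% at 310 bp. It was 59.3% at 990 bp, so summits were flanked on both sides by sequence with less A and T than the sequence farther out. A dip of this kind surrounded far intron summits, from 68.4% to 54.5% at 170 bp. Around promoter summits the content was 56.1% at 310 bp, 54.7% at 490 bp and 56.4% at 950 bp, a smaller rise.

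**Figure D4:**
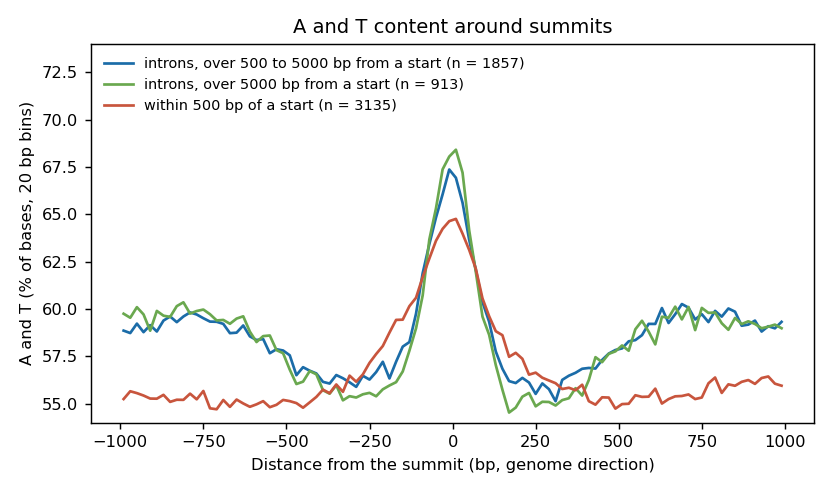
Share of A and T (vertical, percent of bases in bins of 20 bp) by distance from the summit (horizontal, bp) for near intron summits (blue), far intron summits (green) and promoter summits (orange). The near intron line peaks at 67.4%, dips to 55.1% near 310 bp and rises to 59.3% at 990 bp. The promoter line rises less, from 54.7% at 490 bp to 56.4% at 950 bp.

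Against their own flanks, near intron summits differed in 15 of 43 motifs, each sought on both strands anywhere in the window. There were 8 more frequent (18.6%) and 7 less frequent (16.3%, exact two-sided McNemar tests, Benjamini-Hochberg adjusted over the 43). The background for these counts is all 2080 distinct 6-mers, of which 380 were more frequent (18.3%) and 680 less frequent (32.7%). The motifs were thus called more frequent about as often as 6-mers at large, and less frequent less often. The core TAAT occurred in 77.0% of windows and 54.8% of flanks (difference 22.2 points, Newcombe interval 19.2 to 25.2, exact McNemar adjusted p = 9.73e-43). TAATTA, which contains TAAT, occurred in 10.3% and 6.03% (4.25 points, 2.55 to 5.98, exact McNemar adjusted p = 8.57e-06). Both differences were also past the threshold in the lists of replicate 1 and replicate 2 alone. Facing cores, TAAT and ATTA with 3 bases between them, were in 22 windows and 7 flanks (exact McNemar adjusted p = 0.025), and this call was lost in the list of replicate 1 alone (adjusted p = 0.0615). It was also lost with flanks 400 bp away at higher coordinates (exact McNemar adjusted p = 0.302), flanks at 1000 bp (0.373), windows of 51 bp (0.876) and gene 5′ ends (0.0651). Cores facing across 2 bases were in 17 windows and 12 flanks and were not called (exact McNemar adjusted p = 0.493). Other homeodomain sites were not called either. These were TAATTG (10.6% against 9.48%, exact McNemar adjusted p = 0.341), TAATCC (3.02% against 2.21%, 0.231) and the Abd-B and caudal site (8.02% against 6.68%, 0.215). The Exd and Hox composite TGATNNAT occurred in 8.29% against 5.71%. This call was lost with gene 5′ ends (exact McNemar adjusted p = 0.273), flanks at 1000 bp (0.107), windows of 51 bp (0.172) and windows of 100 bp to either side (0.0741). The Forkhead motif GTAAACA occurred in 4.25% against 2.53%, a call lost in the list of replicate 2 alone (exact McNemar adjusted p = 0.0823) and with windows of 51 bp (0.127).

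These differences moved with A and T content. The flanks held less A and T than eligible sequence as a whole, at 56.4% against 60.8%. Each of the 36 6-mers that hold only A and T was more frequent at the summits, as were TATAAA (the TATA box, 22.1% against 10.6%), AAAAAA (28.8% against 17.4%) and ATATAT (13.4% against 6.14%). Of the 36 with no A or T, none was more frequent and 29 were less. The less frequent motifs were GCCAT of Pho (11.9% against 18.7%), CACACA (8.78% against 14.4%), GAGAG of GAGA factor (11.1% against 16.4%), CATTCC of Scalloped, TGACAG of Homothorax and the E-boxes CACGTG and CAGCTG. The calls for TGACAG and CAGCTG were lost in the list of either replicate alone. With flanks at 1000 bp GAGAG and CACACA each differed by -1.88 points and were not called (exact McNemar adjusted p = 0.191 and 0.144). CACGTG was lost with these flanks (exact McNemar adjusted p = 0.576), with flanks at higher coordinates (0.157) and with gene 5′ ends (0.101). CATTCC was lost with gene 5′ ends (exact McNemar adjusted p = 0.0590) and with transposable elements counted as genes (0.0566). In the 272 pairs whose window and flank were within 3 bases in their A and T count, a comparison added after the values were seen, 0 of 43 motifs passed the exact McNemar test, at an adjusted p or at an unadjusted p under 0.05. There the differences of windows from flanks were -1.84 points for TAAT and -4.04 points for TAATTA (exact McNemar adjusted p = 1 for both), over far fewer pairs than the whole set.

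Sequence content varied with signal among the near intron summits. In 4 groups of 464 or 465 by pooled signal, A and T content was 69.2% in the strongest, 67.6% and 64.8% in the next groups and 63.1% in the weakest. TAAT occurred in 82.5% of the strongest group (Wilson interval 78.8 to 85.7) and 70.1% of the weakest (65.8 to 74.1), and their flanks held it in 52.8% and 55.1%. TAATTA was in 12.7% of the strongest and 8.17% of the weakest, with intervals of 9.99 to 16.1 and 6.01 to 11.0 that overlapped. The GAGA factor motif ran the other way, from 8.19% in the strongest group to 14.4% in the weakest, while its share in their flanks was 20.04% and 13.8%. No test was run on these shares.

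Against promoter summits, near intron summits held fewer motifs of housekeeping promoters. The rule itself sets these classes apart by distance from a start site, so position and OdsH binding cannot be told apart here. The motifs were not sought at promoters without a summit. Of 43 motifs 2 were more frequent and 5 less (two-sided Fisher exact tests, adjusted over the 43). Of the 2080 6-mers 52 were more frequent (2.5%) and 94 less (4.52%). TATCGATA, bound by DREF, a transcription factor of replication and housekeeping genes, was in 3 near intron windows (0.162%) and 75 promoter windows (2.39%, Fisher exact adjusted p = 1.24e-10). CGATA, a motif of the insulator protein BEAF-32 that lies within TATCGATA, occurred in 11.4% and 17.99% (difference -6.63 points, -8.57 to -4.62, Fisher exact adjusted p = 5.34e-09). GGTCACAC, bound by M1BP, was in 1 near intron window and 35 promoter windows (Fisher exact adjusted p = 2.68e-05). These 3 were also less frequent past the threshold in the lists of replicate 1 and replicate 2 alone and within 5 groups of like A and T content. The 6-mers with the smallest p were CGATAG (1.29% against 6.76%), ATCGAT (2.05% against 7.02%) and TATCGA (3.61% against 9.03%), all of which overlap TATCGATA or CGATA, and CAACAC (3.77% against 8.58%).

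TAAT was more frequent at near intron summits than at promoter summits, at 77.0% against 71.9% (Fisher exact adjusted p = 0.000802), a call lost with the 3611 strongest summits (adjusted p = 0.385) and with windows of 51 bp (1.599 points, adjusted p = 0.570). Within groups of like A and T content, a comparison added after the values were seen, its log odds ratio was -0.011 (Cochran-Mantel-Haenszel test, n = 1857 and n = 3135 windows, adjusted p = 0.942). The Stat92E motif TTCNNNGAA occurred in 4.09% and 2.46% (Fisher exact adjusted p = 0.0114), and this call held within the same groups (Cochran-Mantel-Haenszel test over the same windows, adjusted p = 0.0276). It was lost with the 3611 strongest summits (Fisher exact adjusted p = 0.128), with gene 5′ ends (adjusted p = 0.215) and with windows of 51 bp and of 100 bp to either side (adjusted p = 0.180 and 0.154). With the 3611 strongest the calls for GGTCACAC (Fisher exact adjusted p = 0.321) and CAGCTG (adjusted p = 0.416) were lost too, as both were with windows of 51 bp (adjusted p = 0.100 for each). CAGCTG was less frequent, at 2.96% against 5.199%, and TGACAG at 2.32% against 3.76%, a call that was lost in the list of either replicate alone. TAATTA did not pass, at 10.3% against 9.09% (difference 1.19 points, -0.481 to 2.94, Fisher exact adjusted p = 0.295), nor did TATAAA, at 22.1% against 20.4%.

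Against far intron summits, no difference in sequence passed the threshold. By Fisher exact tests 0 of 43 motifs and 0 of 2080 6-mers differed in either direction at the adjusted threshold, and the background share was thus 0%. At an unadjusted p under 0.05 there were 2 motifs and 119 6-mers, and the Cochran-Mantel-Haenszel test within groups of A and T content also called 0 motifs. The smallest p among motifs was that of GGTCACAC, in 1 near and 7 far intron windows (Fisher exact adjusted p = 0.102). TAATTA differed by 0.318 points (-2.16 to 2.62). A p that misses the threshold does not show that the classes were alike, and with 913 far intron summits the interval for TAAT, whose difference was -1.03 points, ran from -4.27 to 2.33 points.

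**Figure D5:**
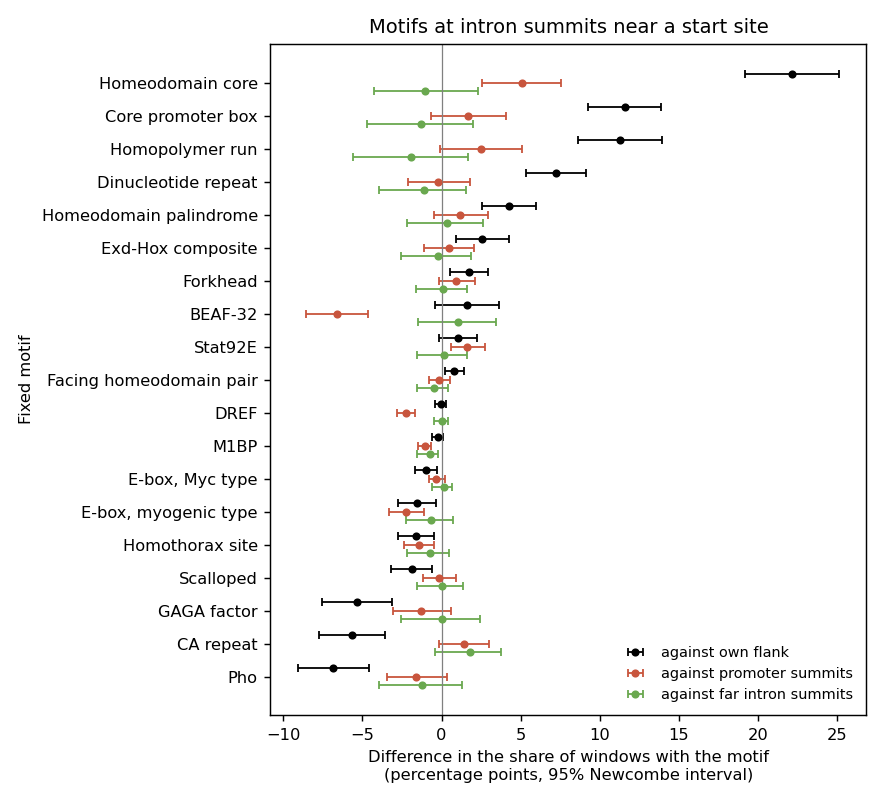
Difference between near intron summits and 3 sets of windows in the share that holds each fixed motif (horizontal, percentage points with 95% Newcombe intervals), for the 19 motifs called against flanks or promoters: own flanks (black), promoter summits (orange) and far intron summits (green). Differences from flanks are the widest, up to 22.2 points for the homeodomain core, and the DREF, BEAF-32 and M1BP motifs stand out against promoters.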

How the data were processed

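Members and lists were chosen with earlier results of these data known. Per the labels, chromatin was sonicated to 200 to 800 bp and each replicate was set against a control library. The authors deposited peak lists for dm6: 1 for each replicate and 1 pooled, each of 30000 peaks that include background, and a list thresholded on the irreproducible discovery rate. Aligner and caller: not given in the sources used here. Read depth is unknown. The deposited signal of each peak has no stated scale. The deposited −log10 q-value was not used. The deposited summit offset gave each summit. Lists for dm3 were not used.

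Summits were placed on Ensembl release 115 (BDGP6), leaving out 5809 transposable element entries. A start site is the 5′ end of any transcript. Replicate signal was that of the strongest peak with a summit within 200 bp. Motifs were sought in the Release 6 genome from RefSeq. Python 3.11.15, numpy 2.4.6, scipy 1.17.1, pandas 2.3.3 and statsmodels 0.14.6 were used, and the test code was checked on simulated data. The threshold was an adjusted p of 0.05. For single replicates the 7223 strongest peaks of that replicate were taken. Named genes were those of the 20 strongest summits, the 5 coding genes with most summits, and up to 4 hosts a list. Named 6-mers were among the 10 with the smallest p. Sequences were those of the 4 strongest summits and the strongest with TAATTA or a facing pair, by a rule that left out 1 arm.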

Additional observations from a re-analysis of the deposited data

How the results depend on the processing

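No paired analysis was possible because there is 1 group. With 1 replicate left out, the share of near intron summits was 25.5% to 25.7%, motifs more frequent than at promoters numbered 3 to 4 (2 with both), and the excess of strong summits over far introns was 3.88 to 5.66 points. That excess also missed the threshold with the 3611 strongest summits (4.95 points, Fisher exact adjusted p = 0.0505), with gene 5′ ends (2.02 points) and with transposable elements counted as genes (3.76 points, adjusted p = 0.0731). Against promoters it passed when only the top 10% were strong (-2.02 points, Fisher exact adjusted p = 0.0290). The share of near intron summits was 24.6% with gene 5′ ends, 24.3% with coding starts, 26.7% with transposable elements, 18.6% with a lower limit of 1000 bp and 15.2% with an upper limit of 2000 bp. Gene 5′ ends gave a first intron share of 80.7%, a ratio of median signal to far introns of 1.02 (1.07 as reported) and 3 motifs lower than flanks. The 3611 strongest gave 638 hosts, a ratio of 1.04, and 0 motifs higher and 2 lower than promoters. Windows of 51 bp gave 5 motifs higher than flanks, 0 higher and 2 lower than promoters, and 1 lower than far introns. Windows of 100 bp to either side gave 5 higher and 8 lower than promoters. Flanks at 1000 bp gave 2 motifs lower. The settings on transposable elements, on A and T content and on eligible bases were added after the data were seen. Transposable elements counted as genes gave 1 motif lower than far introns. In the 272 pairs of like A and T content 0 motifs were higher and 0 lower, and the direction turned for TAAT (-1.84 points), TAATTA (-4.04), ATATAT (-1.84), TGATNNAT (-0.74), TATAAA (-0.37) and GAGAG (2.57), all at an exact McNemar adjusted p of 1. TAAT against promoters turned within groups of A and T content (-0.011 on the log odds scale). The cause of these changes was not tested. Read depth is not given, so how far it limits the lists is unknown.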
